A study of Danio rerio with 12 samples.

Results

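Cells sorted for GFP from th:GFP zebrafish (Danio rerio) larvae at 96 h after fertilization were compared with GFP-negative cells of the same line and age. The experiment holds 2 libraries, 1 of each kind, of the 12 libraries of the series. The deposited table gives both libraries the same column names, so the GFP-positive library was taken as the one whose RPKM (reads per kilobase of exon, scaled to library size) minus that of the other equals the deposited difference. That equality held in all 32312 features, and it settles which library is which only if the deposited difference is GFP-positive minus GFP-negative; under the opposite convention each direction given here would be inverted.

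The wider study sorted fluorescent cells from 4 kinds of transgenic zebrafish at several ages to profile catecholaminergic neurons, with a GFP-negative library beside each GFP-positive one. Both 96 h groups carried the th:GFP transgene, a bacterial artificial chromosome (BAC, a long piece of genomic DNA) in which regulatory DNA of the tyrosine hydroxylase gene drives GFP. Whole larvae grown under standard conditions, with no treatment named, were dissociated and their cells were separated by fluorescence-activated sorting. Polyadenylated RNA was amplified before sequencing, and the labels give neither the number of larvae or cells nor the purity of the sort.

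Catecholaminergic cells make dopamine, noradrenaline or adrenaline from tyrosine. Tyrosine hydroxylase (th) performs the rate-limiting step and needs tetrahydrobiopterin, whose synthesis starts with GTP cyclohydrolase; aromatic amino acid decarboxylase (ddc) then yields dopamine, and dopamine beta-hydroxylase (dbh) converts it to noradrenaline. In larval zebrafish these cells include dopaminergic neurons of the diencephalon, olfactory bulb and retina, noradrenergic neurons of the hindbrain, and sympathetic and chromaffin cells outside the brain.

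Sequencing was shallow. The GFP-negative library held 63631 exon reads and the GFP-positive library 70510, spread over 7898 and 8579 features. A single read was therefore worth 16.3 CPM (a read count scaled to library size, here after TMM scaling) in the GFP-negative library and 13.7 CPM in the GFP-positive one. With 1 library per group there is no replicate and no test across libraries, so ratios describe these 2 libraries. Each ratio is a log2 of GFP-positive over GFP-negative after TMM scaling, with a prior count of 2 for single genes and none for sums, and is followed in square brackets by an exact Clopper-Pearson 95% interval of the read ratio. The intervals, and the floor of 3 reads used where a library has no read, cover counting error only, because amplified reads without molecular identifiers are not independent molecules. In bulk samples fewer cells of a type and less RNA per cell cannot be told apart.

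Of the defining genes of catecholamine synthesis, th and dbh were found only in the GFP-positive library, while ddc had no exon read in either. The listed genes of synthesis and transport had 20 symbols, of which 13 features were found and 7 had a read. Their reads summed to 1 in the GFP-negative library and 44 in the GFP-positive library, a log2 ratio of 5.21 [2.66, 10.55]. They made up 0.0624% of GFP-positive reads (exact 95% interval 0.0453% to 0.0838%) and 0.00157% of GFP-negative reads.

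The gene th, on chromosome 25 from 24778671 to 24797839 in the table's coordinates, had 0 reads in the GFP-negative library and 10 in the GFP-positive one. Against the floor of 3 reads this is 2.81-fold higher, and the exact interval starts at a log2 ratio of 0.92. GCH1, the feature named for GTP cyclohydrolase (chromosome 17, 14962921 to 14990381), had 0 and 12 reads, 3.37-fold higher against the floor, with an interval from 1.23. The noradrenaline enzyme dbh (chromosome 10, 10530157 to 10573014) had 0 and 11 reads, 3.09-fold higher against the floor, with an interval from 1.08. All reads of these 3 genes were uniquely placed. The floor limits each of these folds, since a gene with about 10 reads cannot be shown to differ by more. Each fold also takes the GFP-positive count as exact, so it is not a lower bound.

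The remaining genes of the list had 4 reads or fewer in either library. SLC6A3, the feature named for the dopamine transporter, had 0 reads in the GFP-negative library and 4 in the GFP-positive one. Against the floor this is 1.12-fold higher, although its exact interval reaches down to a log2 ratio of -0.84. The vesicular monoamine transporter slc18a2, which loads dopamine and noradrenaline into vesicles, had 0 and 1 read. The pterin recycling genes pcbd1 and qdprb1 (now qdprb.1) had 1 and 3 reads, and 0 and 3 reads. The decarboxylase ddc had no exon read in either library. A count of 0 of 70510 reads allows up to 0.00425% of the GFP-positive library, so ddc below that share would go undetected at this depth. The paralogue th2 was likewise at 0 in both. Genes that break down catecholamines and D2-type receptor genes summed to 4 reads in each library.

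Measured per length, th lay above the median of the features detected in the sorted cells but well below the highest ones. Its RPKM, which rests on 10 reads, was 78.1 in the GFP-positive library. There 789 of the 8579 features with a read had a higher RPKM, and the median over detected features was 10.3. The RPKM of dbh was 55.2, that of SLC6A3 was 25.5 and that of GCH1 was 23. Rhodopsin (rho), by contrast, had an RPKM of 4071 in the same library.

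**Figure D1:**
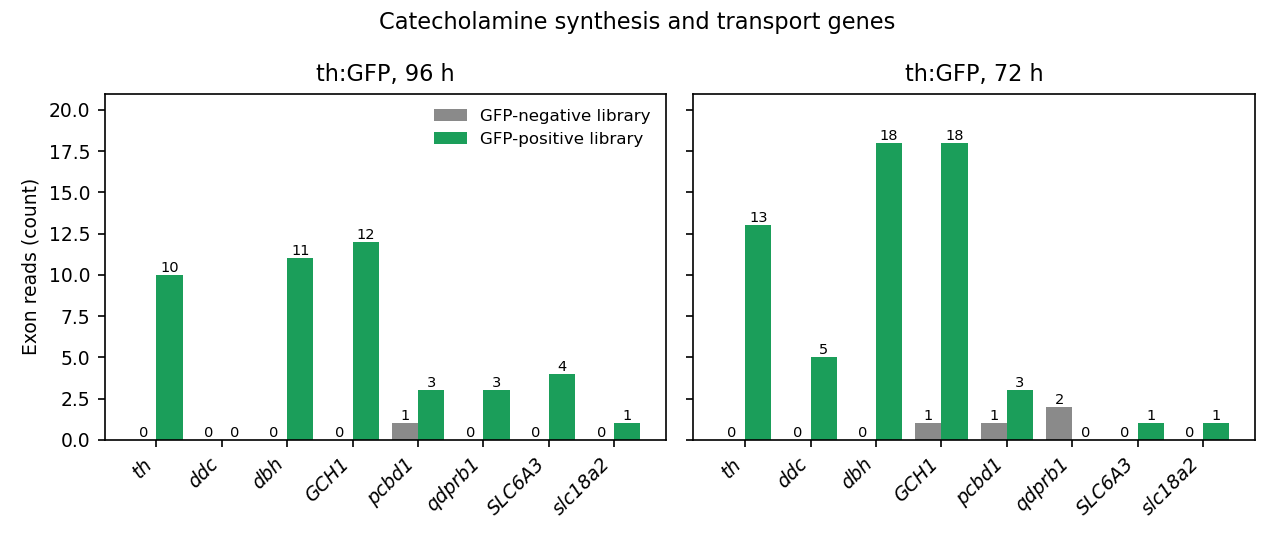
Exon reads (count, vertical axis) of 8 genes of catecholamine synthesis and transport in the GFP-negative (grey) and GFP-positive (green) th:GFP library, at 96 h on the left and at 72 h on the right. Numbers above the bars are the reads, 1 library per bar with no replicate; th, dbh and GCH1 have 10 to 12 reads in the GFP-positive library at 96 h and 0 in the GFP-negative one.

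Few genes with at least 10 reads were confined to a single library. Of 10639 features with a read, 2741 (25.8%) had reads in the GFP-positive library only. Among the 1762 features with at least 10 reads over both libraries, 5 (0.284%) had reads in the GFP-positive library only. These were th, dbh, GCH1, the serum iron carrier tfa (transferrin) with 0 and 11 reads, and the coatomer subunit copg2 with 0 and 11 reads. The only such gene on the GFP-negative side was lyz (lysozyme, of myeloid leukocytes), with 11 and 0 reads. Against the floor it was 4.35-fold lower in the GFP-positive library, with an interval that ends at a log2 ratio of -1.57. Genes from this comparison other than listed ones were named after their values were seen.

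Outside the catecholamine genes the libraries were close to each other. Of 792 genes with at least 20 reads over both libraries, 711 (89.8%) differed by less than 2-fold. Across these genes Pearson's r of log2(CPM + 1) was 0.902, a description over genes, which are not independent replicates. No gene was at least 4-fold higher in the GFP-positive library (0 of 792, 0%), and 5 (0.631%) were at least 4-fold lower. At 2-fold, 30 genes (3.79%) were higher and 51 (6.44%) lower. The counting interval lay above 0 for 38 genes (4.8%) and below 0 for 119 (15%). The median log2 ratio of the 792 genes was -0.06, and DESeq2 size factors, which came out at 1 in both libraries and leave depth uncorrected, shifted it by 0.24.

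**Figure D2:**
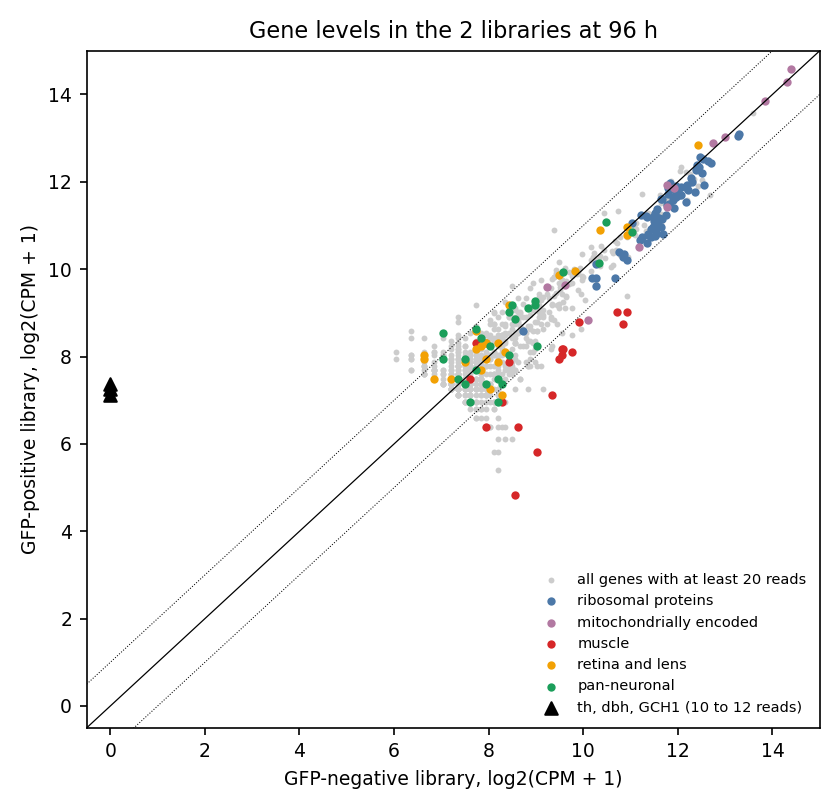
Level of each gene with at least 20 reads over both libraries at 96 h, as log2(CPM + 1), with the GFP-negative library on the horizontal and the GFP-positive library on the vertical axis, with listed gene groups coloured. The solid line marks equal levels and the dotted lines a 2-fold difference; muscle genes (red) lie mostly below the lower line, and th, dbh and GCH1 (triangles, 10 to 12 reads, below the 20-read minimum) stand at 0 on the horizontal axis.

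Transcription factors of dopaminergic and diencephalic neurons had few reads, and their summed ratio could not be told from 0. They summed to 97 in the GFP-negative library and 100 in the GFP-positive one, a log2 ratio of -0.20 [-0.62, 0.22], with 30 of 39 features detected. The homeobox gene otpa, needed for diencephalic dopaminergic neurons in zebrafish, had 12 and 20 reads, 0.43 [-0.61, 1.66]. Its paralogue otpb had 9 and 7 reads, and the TALE homeobox gene meis1 (now meis1b) had 17 and 9. The LIM homeobox gene isl1 (now isl1a) had 9 and 4 reads. Each of these intervals includes 0.

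Genes of noradrenergic and sympathetic cells summed to 32 and 54 reads, 0.51 [-0.15, 1.19]. The zinc finger genes insm1a and insm1b, which act in neuroendocrine differentiation, had 8 and 11 reads and 4 and 9 reads. The listed gene tfap2a had 7 and 5 reads, -0.55 [-2.73, 1.14], and tfap2b had 3 and 5, 0.32 [-1.87, 3.18]. The sympathetic factor hand2 had 0 reads in the GFP-negative library and 7 in the GFP-positive one. Against the floor this is 1.97-fold higher, with an interval from a log2 ratio of 0.28. The serotonin synthesis genes tph1a and tph2 had 0 reads in the GFP-negative library and 1 each in the GFP-positive one. The gene hand2 was picked after its values were seen.

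General neuronal genes were present in both libraries, with a summed ratio whose interval included 0 under TMM scaling only. The pan-neuronal list summed to 853 reads in the GFP-negative library (1.34%) and 1066 in the GFP-positive library (1.51%), a log2 ratio of 0.08 [-0.06, 0.21]. The sum was 0.17 [0.04, 0.31] when scaled on library size and 0.32 [0.19, 0.45] with DESeq2 size factors, which left depth uncorrected. Whether its interval includes 0 thus depends on the scaling. Its 26 members with enough reads had a median of 0.19, against -0.06 over all genes considered. Of these 26 members, 2 had an interval above 0 and 1 below, where 4.8% and 15% of all genes did. The higher ones were alpha-tubulin tuba1l (now tuba1c), with 88 and 158 reads, 0.59 [0.21, 0.99], and the tubulin zgc:65894, with 8 and 27 reads, 1.32 [0.33, 2.86]. The lower one was the synaptic vesicle gene sypb, with 18 and 9 reads, -1.07 [-2.58, -0.02]. Most reads of tuba1l were shared with other features, 41 of 158 being unique in the GFP-positive library, so its value is uncertain. Beta-synuclein (sncb) had 79 and 82 reads and the membrane glycoprotein gpm6aa 47 and 71. Under the 20-read minimum, the RNA-binding neuronal marker elavl3 had 15 and 4 reads, -1.69 [-4.20, -0.50]. The neuronal splicing regulator rbfox1 had 13 and 5 reads, -1.29 [-3.47, -0.04]; both were named after their values were seen.

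Genes of neuropeptides and secretory granules summed to 45 and 71 reads, 0.41 [-0.15, 0.99]. The processing enzyme cpe had 10 and 16 reads and the granin scg3 had 8 and 12. Genes of GABA and glutamate neurons summed to 80 and 71 reads, -0.42 [-0.90, 0.06]. The GABA transporter zgc:103663 (now slc6a1b) was the member with most reads, with 46 reads in the GFP-negative library and 27 in the GFP-positive one, -0.96 [-1.76, -0.30]. Without this gene the list stood at 0.13 [-0.55, 0.82], so the sign of the sum rests on it. The GABA synthesis gene gad2 had 6 and 9 reads.

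Genes of neural progenitors and glia summed to 1049 and 1109 reads, -0.17 [-0.29, -0.04]. The sum was -0.07 [-0.19, 0.06] when scaled on library size and 0.080 with DESeq2 size factors, which were 1 in both libraries and so left depth uncorrected. Of 16 members considered, 4 had an interval below 0 and none above, where 15% and 4.8% of all genes did. The members did not share a direction, with 9 ratios above 0 and 7 below. Their median was 0.07, against -0.06 over all genes considered. Without fabp7a, the member with most reads, the list stood at -0.10 [-0.24, 0.04]. The radial glial fatty acid binding gene fabp7a had 232 and 205 reads, -0.42 [-0.70, -0.15], and the MARCKS-like gene zgc:85717 (now marcksl1b) had 122 and 91, -0.66 [-1.08, -0.27]. The glial glutamate transporter slc1a2b had 58 and 74 reads, 0.10 [-0.41, 0.63].

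Photoreceptor and lens genes were abundant in both libraries, and their summed reads were somewhat higher in the GFP-positive one. The list summed to 1106 reads in the GFP-negative library (1.74%) and 1583 in the GFP-positive library (2.25%), 0.27 [0.16, 0.38], and 0.20 [0.07, 0.34] without rho. Among 24 members considered, 18 had a ratio above 0, as did 364 of all 792 genes considered. The interval lay above 0 in 3 members and below 0 in none, where 4.8% and 15% of all genes did. Rhodopsin of rods (rho) had 339 and 535 reads, 0.41 [0.21, 0.61]. The ultraviolet cone opsin opn1sw1 had 81 and 138 reads, 0.51 [0.12, 0.94], and the lens crystallin cryba2b had 6 and 19, 1.19 [0.04, 3.03]. The other cone opsins were closer, with 119 and 145 reads for the green opsin opn1mw1, 120 and 129 for the red opsin opn1lw2, and 56 and 73 for the blue opsin opn1sw2. Of the 6 members with a ratio below 0, rcv1 (now rcvrn2) was at least 2-fold lower, with 19 and 10 reads, -1.02 [-2.44, 0.005]. Lens crystallins alone, a family picked after its values were seen, summed to 136 and 175 reads, 0.12 [-0.21, 0.45]. Of the 6 crystallins considered, 4 had a ratio above 0 and 2 below. The summed photoreceptor and lens reads of the GFP-positive library exceeded its 44 catecholamine reads, and their part in other differences was not tested.

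Muscle genes gave the clearest difference in the other direction. Their reads summed to 924 in the GFP-negative library (1.45%) and 395 in the GFP-positive library (0.56%), a log2 ratio of -1.47 [-1.65, -1.30]. Of the 18 members considered, 15 were at least 2-fold lower, against 6.44% of all genes, and the interval of each of the 15 lay below 0. The median of the 18 was -1.43, against -0.06 over all genes considered. The 3 other members were gapdh (13 and 23 reads) and eno3 (12 and 13), glycolytic enzymes, and the adenylate kinase ak1 (21 and 17).

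The muscle genes that differed included contractile and calcium-binding genes, several of them typical of fast fibres. The muscle actin actc1b had 119 reads in the GFP-negative library and 38 in the GFP-positive one, -1.83 [-2.46, -1.35]. The calcium buffers pvalb1 and pvalb2 had 112 and 31 reads, -2.02 [-2.72, -1.51], and 103 and 38 reads, -1.63 [-2.26, -1.13]. Troponin I tnni2a.4 had 32 and 4 reads, -2.70 [-5.21, -1.75]. Troponin C tnnc2 (now tnnc2.2) had 40 and 10 reads, -2.03 [-3.41, -1.22]. The fast myosin light chain zgc:103639 (now mylpfb) had 23 and 2 reads, -2.82 [-6.90, -1.75], the lowest ratio of the 792 genes. Muscle transcripts remained in the GFP-positive library, where pvalb1 had an RPKM of 538, higher than the 78.1 of th.

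Connective tissue and leukocyte genes were also lower. Genes of connective tissue, cartilage and notochord summed to 192 and 111 reads, -1.04 [-1.39, -0.69], and all 5 members considered had a ratio below 0, as did 428 of all 792 genes. The collagens col1a1a and col1a2 had 53 and 26 reads, -1.21 [-2.01, -0.57], and 28 and 11 reads, -1.43 [-2.75, -0.54]. The bone and matrix glycoprotein sparc had 34 and 31 reads. Leukocyte genes summed to 35 and 10 reads, -2.05 [-3.23, -1.01], with lyz providing 11 of the GFP-negative reads. The neutrophil granule gene npsn had 4 and 0 reads.

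Epidermal genes were mixed. The list summed to 980 and 1003 reads, -0.21 [-0.34, -0.08]. The sum was -0.11 [-0.24, 0.01] when scaled on library size and 0.033 with the DESeq2 factors of 1. Of 18 members considered, 6 were at least 2-fold lower and 1 at least 2-fold higher, against 6.44% and 3.79% of all genes. The actin-binding profilin pfn1 had 119 and 49 reads, -1.49 [-2.04, -1.03], and keratin krt8 had 23 and 11, -1.16 [-2.49, -0.22]. The most abundant keratins did not follow, since krt4 had 229 and 301 reads, 0.15 [-0.10, 0.40], and the keratin zgc:92533 (now krt91) had 198 and 214. The basal keratin krt5 had 17 and 37 reads, 0.81 [0.01, 1.80].

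Blood and gut genes were detected in both libraries. Erythroid genes summed to 228 and 270 reads, -0.00 [-0.26, 0.26], and the embryonic globin hbae3 had 46 and 50. Genes of liver, gut and pancreas summed to 107 and 169 reads, 0.41 [0.06, 0.78], and 0.67 [0.25, 1.09] without rbp4, the member with most reads. The members considered did not follow the sum. Their median was -0.41, with 1 of 3 above 0 and 2 below, where 364 and 428 of all 792 genes were. The liver and yolk genes rbp4 and apoeb had 32 and 28 reads and 26 and 22 reads. Apolipoprotein zgc:193613 (now apoa2) had 3 and 14 reads, 1.5 [0.14, 4.42], and the trypsin ENSDARG00000073742 (now prss59.2) had 5 and 18, 1.32 [0.12, 3.39], of which 7 of 18 were unique. Blood vessel genes summed to 12 and 10 reads.

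Pigment cells, which use overlapping pterin and tyrosine chemistry, left few reads. Melanophore genes summed to 7 and 16 reads, 0.95 [-0.41, 2.47], and the most abundant member, tyrp1b, had 2 and 5. Genes of xanthophores and iridophores summed to 20 and 32 reads, 0.43 [-0.42, 1.32]. Hair cell and lateral line genes summed to 27 and 26 reads, and pituitary and pineal genes to 12 and 22. Each of these intervals includes 0.

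**Figure D3:**
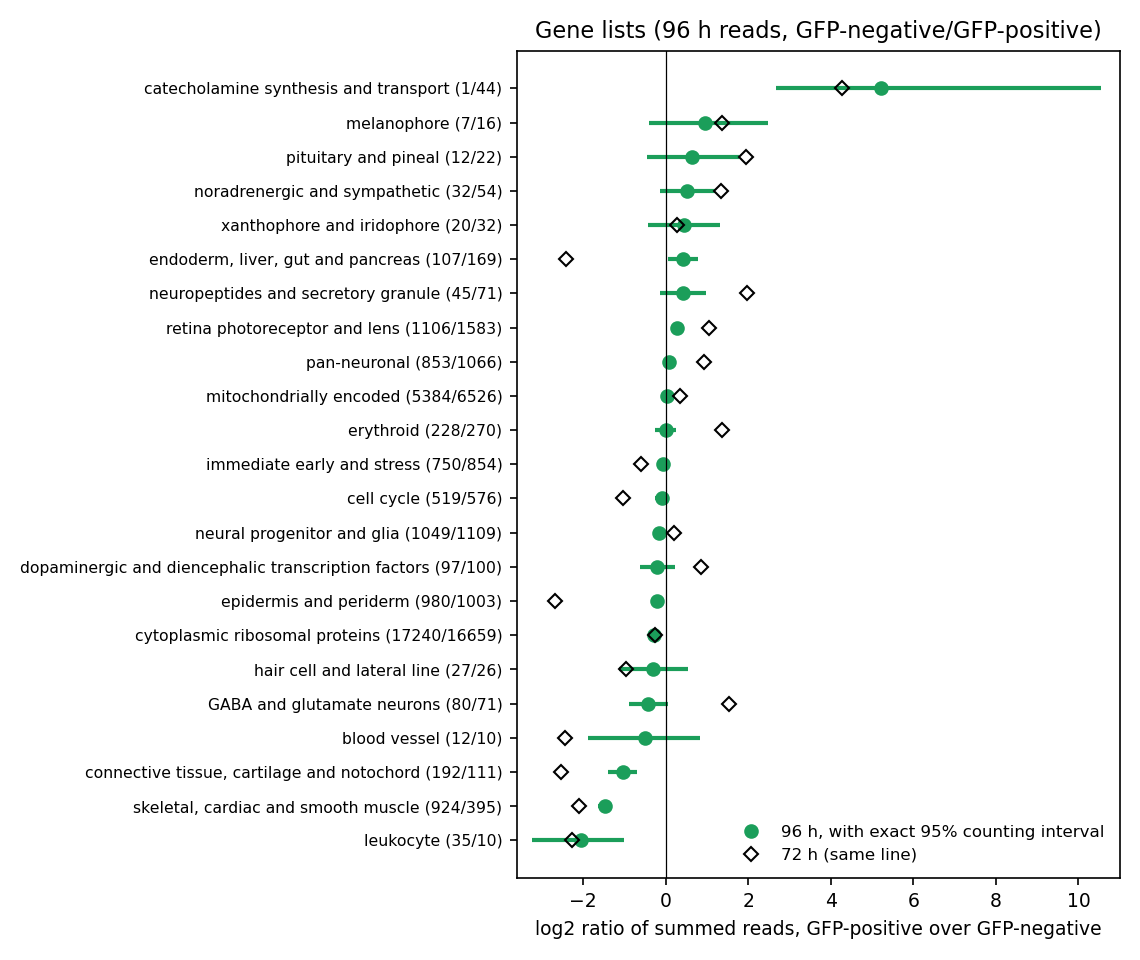
Log2 ratio of summed reads, GFP-positive over GFP-negative, for each gene list with at least 20 reads; green points are the 96 h libraries with exact 95% counting intervals, diamonds the 72 h libraries of the same line. Catecholamine genes stand at 5.21 and muscle genes at -1.47 at 96 h, while pan-neuronal genes stand at 0.08 at 96 h and 0.92 at 72 h and epidermal genes at -0.21 and -2.68.

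Lists not tied to a tissue also had ratios near 0. Cell cycle genes summed to 519 and 576 reads, -0.10 [-0.27, 0.08], and immediate early and stress genes to 750 and 854, -0.06 [-0.20, 0.09]. The constitutive chaperone hspa8 had 265 and 379 reads, 0.27 [0.04, 0.50]. Without hspa8 the immediate early and stress list stood below 0, at -0.28 [-0.46, -0.09]. The heat-inducible hsp70l feature on chromosome 8 had 136 and 142 reads, -0.18 [-0.53, 0.17], of which 29 and 37 were unique. That gene had no read in either library at 72 h.

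Ribosomal protein genes were slightly but broadly lower in the GFP-positive library. They summed to 17240 reads in the GFP-negative library (27.1%) and 16659 in the GFP-positive library (23.6%), -0.30 [-0.33, -0.26]. Of 77 members considered, 72 had a ratio below 0 and 45 an interval below 0, against 15% of all genes. The sum was -0.20 [-0.23, -0.17] when scaled on library size and -0.049 with the DESeq2 factors of 1, which leave the GFP-positive library 1.11 times deeper. The large-subunit stalk gene rplp0 had 611 and 620 reads, -0.22 [-0.39, -0.06], and stood at 0.021 with depth left uncorrected in that way; wu:fc94f01 (now rps2), with 614 and 636 reads and -0.19 [-0.36, -0.03], stood at 0.051.

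The 13 features of the mitochondrial genome with exon counts summed to 5384 and 6526 reads, 0.03 [-0.02, 0.08]. Scaled on library size the sum was 0.13 [0.08, 0.18], which leaves out 0. The sum does not hold the mitochondrial feature ENSDARG00000080337, which has no exon length. That feature had 10671 gene reads in the GFP-negative library and 3951 in the GFP-positive one, 12.3% and 4.59% of gene reads. Cytochrome oxidase subunit mt-co1 had the most exon reads in both, with 1314 and 1798, 0.21 [0.10, 0.31]. Complex I subunits mt-nd3 and mt-nd6 were lower, with 67 and 33 reads, -1.21 [-1.91, -0.65], and 143 and 106 reads, -0.67 [-1.05, -0.31]. The members of this one genome thus did not share a direction.

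Among single genes with at least 20 reads, the 12 highest ratios whose interval left out 0 ran from 1.32 to 1.90. The peroxiredoxin zgc:110343 (now prdx1), which removes peroxide, had 5 and 28 reads, 1.90 [0.85, 3.97]. The transmembrane leucine-rich repeat gene islr2, which acts in axon growth, had 4 and 20 reads, 1.68 [0.50, 4.08]. The orphan nuclear receptor nr2f1a had 5 and 19 reads, 1.39 [0.21, 3.46], and the chaperonin subunit cct8 had 10 and 35, 1.41 [0.52, 2.74]. The feature with most reads in this set, slc25a43, had 41 and 140 reads, 1.49 [1.01, 2.07], but 0 and 3 of them were unique, so the value belongs to sequence it shares with other features. Alpha-tubulin tuba1 (now tuba1b), with 13 and 42 reads, likewise had 4 and 9 unique ones. The others described here were pa2g4b (6 and 25 reads), supt16h (4 and 18), azin1b (5 and 19), zgc:65894 and prss59.2.

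The 12 lowest ratios ran from -2.82 to -1.73, and 6 of them were muscle genes of the list, namely zgc:103639, tnni2a.4, tnnc2, pvalb1, acta1b and actc1b. Outside muscle, si:ch211-173b8.1 had 18 and 3 reads, -2.19 [-5.24, -1.05]. The stress-induced phosphatase subunit zgc:162126 (now ppp1r15a) had 22 and 5 reads, -1.98 [-4.14, -0.95]. The homeobox gene pbx4 had 20 and 5 reads, -1.85 [-4.02, -0.79], and the start-site selection factor zgc:56676 (now eif1b) had 35 and 11, -1.73 [-3.04, -0.91]. The gene zgc:73345 (now romo1), on chromosome 6 and coding for a mitochondrial protein, had 18 and 4 reads. The tetraspanin cd63 had 17 and 4. Only 4 (zgc:73345) and 3 (cd63) of their GFP-negative reads were unique. Of the 24 reads of skeletal actin acta1b in the GFP-negative library, 6 were unique.

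**Figure D4:**
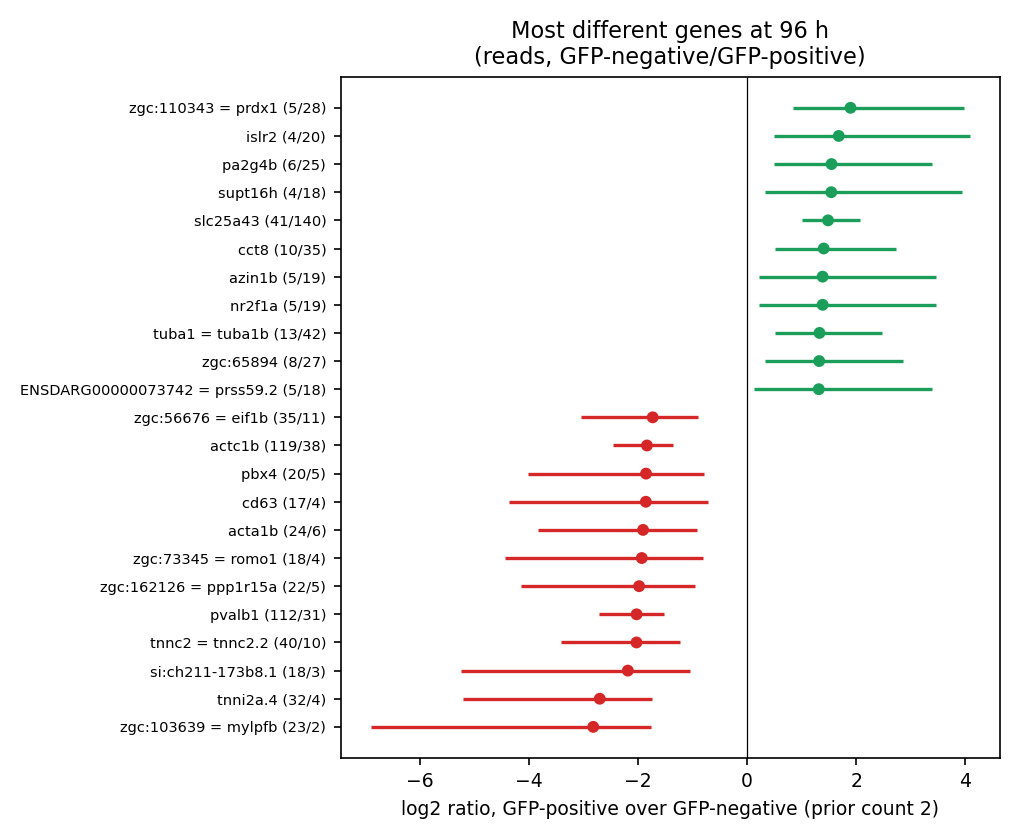
The highest (green, 11 shown) and 12 lowest (red) log2 ratios, GFP-positive over GFP-negative, among genes with at least 20 reads whose exact 95% interval (line) leaves out 0; points are single-gene ratios with a prior count of 2 and the numbers are reads, GFP-negative first. The highest gene reaches 1.90 and the lowest -2.82, and the intervals are wide because most of these genes have fewer than 50 reads.

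The 72 h pair of the same th:GFP line gives values beside those at 96 h, with 79653 GFP-negative and 52869 GFP-positive reads. The catecholamine list summed to 4 and 60 reads at 72 h, 4.27 [2.84, 6.19]. At that age th had 0 and 13 reads, dbh 0 and 18, and GCH1 1 and 18. The decarboxylase ddc, at 0 at 96 h, had 0 and 5 reads. Catecholamine genes made up 0.113% of GFP-positive reads at 72 h and 0.0624% at 96 h.

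Several other lists lay farther from 0 at 72 h, though ribosomal protein genes, at -0.27, and xanthophore and iridophore genes, at 0.27, lay nearer. Pan-neuronal genes summed to 508 and 746 reads at 72 h, 0.92 [0.75, 1.09], against 0.08 at 96 h, and neuropeptide and granule genes to 23 and 70, 1.97 [1.27, 2.72], against 0.41. Epidermal genes summed to 2018 and 244 reads at 72 h, -2.68 [-2.88, -2.49], against -0.21 at 96 h. Muscle genes stood at -2.09 [-2.29, -1.89] at 72 h and -1.47 at 96 h, and connective tissue genes at -2.55 [-2.90, -2.21] and -1.04. At 72 h, 9 of 616 genes considered reached 4-fold in the GFP-positive direction and 42 in the other, against 0 and 5 of 792 at 96 h. Age, sort and library differ together between the pairs and cannot be told apart, and no difference between ages was tested.

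Across 544 genes with at least 20 reads in both pairs, Pearson's r between the 96 h and 72 h log2 ratios was 0.327, and across 781 genes it was -0.04 between 96 h and the 48 h pair, sorted from a th:Gal4 line with a UAS:GFP reporter. These are descriptions over genes, with no libraries in common. At 48 h the catecholamine list summed to 2068 and 9238 reads, 2.17 [2.1, 2.24]. Most of these reads came from the pterin genes pcbd1 (714 and 4450) and GCH1 (780 and 3069). In that pair th had 31 and 272 reads, 3.06 [2.61, 3.73], and dbh had 34 and 49, 0.51 [-0.12, 1.21]. Melanophore genes, at 7 and 16 reads at 96 h, summed to 6666 and 261317 at 48 h, 5.30 [5.27, 5.34].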

How the data were processed

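The authors deposited, per the file headers, counts of total exon reads, unique exon reads and gene reads, and RPKM, for both 96 h libraries; the aligner is not given in the sources used here. Scaffold names in the table carry Zv9, the build of the coordinates. RPKM equals exon reads over exon length and total gene reads (86848 and 86062) in all 27829 features with an exon length; 4483 features have none. The deposited difference and fold change (signed scores that compare the RPKM of a pair) gave the reads of the 72 h and 48 h pairs, 100.0% of them within 0.02 of a whole number. In the 3 tables used, 96 columns of library values were not used.

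Total exon read counts were scaled by TMM (edgeR 4.0.16, R 4.3.3; factors 0.967 and 1.03), and log2 ratios had a prior count of 2. DESeq2 1.42.0 supplied alternative size factors. Intervals came from scipy 1.17.1 under Python 3.11.15. The procedure was also run on simulated counts with counting noise only, which cannot check for the effect of amplification. Lists were summed without a minimum. Medians and counts used genes with at least 20 reads over both libraries, except the count of genes confined to 1 library, which used at least 10. Genes are named as in the table, with current symbols from RefSeq synonyms (5393 features updated); 1410 of 6976 ENSDARG identifiers matched a symbol. Named were the catecholamine genes with a read, the 12 highest and 12 lowest ratios whose interval left out 0, the 8 genes with most reads in each library and up to 4 top members of each other list; others were chosen after their values were seen, and 1 of the 12 highest and 1 further gene are not reported here. Members and lists were chosen with earlier results of these data known. Alternatives were other scalings, prior counts, minimums and, added after seeing the data, unique exon reads and total gene reads.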

Additional observations from a re-analysis of the deposited data

Results flagged for a closer look

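For 9 gene lists, 3 of them families picked after their values were seen, the ratio at 96 h and that of another pair had opposite signs with intervals on opposite sides of 0; none of these differences between pairs was tested. Against 72 h these were progenitor and glial genes, at -0.17 at 96 h and 0.19 at 72 h, and liver, gut and pancreas genes, at 0.41 and -2.41. The 3 liver, gut and pancreas genes considered at 96 h had a median of -0.41, opposite in sign to their list's sum. Against 48 h, in another transgenic line, photoreceptor and lens genes stood at 0.27 at 96 h and -1.51 at 48 h. Epidermal genes stood at -0.21 and 3.67, muscle genes at -1.47 and 1.93, and leukocyte genes at -2.05 and 0.16. Of the families picked later, the chaperonin CCT subunits stood at 0.33 at 96 h, -0.57 at 72 h and -0.28 at 48 h. Without cct4 their 96 h interval includes 0, at 0.30 [-0.03, 0.62]. Opsins with phototransduction genes stood at 0.26 at 96 h and -0.21 at 48 h, and contractile and calcium genes of fast muscle at -1.76 and 1.22. The opsin and fast muscle families share members with the photoreceptor and muscle lists and are not separate cases. The 48 h pair held 27682819 and 25011503 reads, so its intervals leave out 0 even at small ratios. Scaled on library size, the 96 h intervals of the progenitor and epidermal lists include 0, at -0.07 and -0.11. Without fabp7a, the 96 h interval of the progenitor list also includes 0, at -0.10 [-0.24, 0.04].

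Reads outside exons formed a signal that the exon counts leave out. The feature GPC5 on an unplaced scaffold had no exon read but 3312 gene reads in the GFP-negative library and 3818 in the GFP-positive one, 3.81% and 4.44% of all gene reads. The share was somewhat higher in the GFP-positive library, and no counting interval was computed for it.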

How the results depend on the processing

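No paired analysis was possible because each group has 1 library and the labels give no replicate numbers; for the same reason no library could be left out. Against 0 genes at least 4-fold higher and 5 lower, scaling on library size gave 3 lower, DESeq2 size factors 1 higher and 3 lower, a prior count of 0.5 gave 1 higher and 10 lower, a minimum of 50 reads gave 2 lower, and no minimum gave 14 higher and 17 lower. DESeq2 size factors, which came out at 1 in both libraries and so leave depth uncorrected and shift every gene alike, turned the summed ratio of progenitor and glial genes to 0.080 and of epidermal genes to 0.033, and the gene ratios of wu:fc94f01 to 0.051 and rplp0 to 0.021. They moved pan-neuronal genes to 0.32, photoreceptor and lens genes to 0.52, muscle to -1.23, cell cycle to 0.15, stress to 0.19, ribosomal protein genes to -0.049 and mitochondrially encoded genes to 0.28. Library size alone gave -0.20 for ribosomal protein and 0.13 [0.08, 0.18] for mitochondrially encoded genes. It gave 0.17 [0.04, 0.31] for pan-neuronal genes, an interval that leaves out 0 although the move is counted among the 81 below. Among the alternatives added after seeing the data, unique exon reads gave -0.36 for epidermal genes, and total gene reads gave -1.30 for muscle, -0.24 for ribosomal protein and 0.087 for mitochondrially encoded genes. In 81 other combinations of list and alternative the summed ratio moved by less than its counting error; for single genes this held in 729 combinations, while 16 moved by more and 2 changed sign, and for list medians in 70 and not in 22. In gene reads, the mitochondrial feature ENSDARG00000080337, with no exon length, took 12.3% of the GFP-negative and 4.59% of the GFP-positive reads; it enters the RPKM denominator but not the exon counts. Depth limits genes such as th, since 3 reads correspond to 48.8 and 41.1 CPM.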

Other observations

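Gene families picked after their values were seen add further groups. Glycolytic enzymes were higher in the GFP-positive library, with 359 reads in the GFP-negative library and 629 in the GFP-positive one, 0.56 [0.37, 0.76]; 5 of 12 members considered had an interval above 0 and none below, where 4.8% and 15% of all genes did. The glyceraldehyde phosphate dehydrogenase gapdhs had 85 and 181 reads, 0.83 [0.47, 1.23], and the brain-type aldolase aldocb had 22 and 57, 1.07 [0.40, 1.91]. The same family stood at 0.34 [0.11, 0.56] at 72 h and at 1.13 at 48 h. Subunits of the cytosolic chaperonin CCT summed to 175 and 261 reads, 0.33 [0.05, 0.62], with the opposite sign at 72 h, -0.57 [-0.90, -0.25], and at 48 h, -0.28 [-0.30, -0.26]. Without cct4 the 96 h sum stood at 0.30 [-0.03, 0.62]. Of 8 members considered, 1 (cct8) had an interval above 0 and none below.

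Most other families had summed ratios near 0, apart from fast muscle genes. The intervals of histones, of opsins with phototransduction genes and of fast muscle genes left out 0. Tubulins summed to 596 and 767 reads, 0.12 [-0.04, 0.28], proteasome subunits to 399 and 473, -0.00 [-0.20, 0.20], and nuclear-encoded respiratory chain subunits to 1310 and 1585, 0.03 [-0.08, 0.14]. Subunits of the V-ATPase, which acidifies vesicles, summed to 191 and 272 reads, 0.26 [-0.01, 0.54]. Splicing factors stood at -0.09 [-0.23, 0.05], translation factors at -0.08 [-0.16, 0.01], and histones at -0.19 [-0.37, -0.02]. Lens crystallins stood at 0.12 [-0.21, 0.45] and opsins with phototransduction genes at 0.26 [0.14, 0.38]. Contractile and calcium genes of fast muscle summed to 544 and 190 reads, -1.76 [-2.01, -1.52].

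Copies of the inducible Hsp70 gene summed to 155 reads in the GFP-negative library and 165 in the GFP-positive one at 96 h, and to 0 in both 72 h libraries of the same line. Both 96 h libraries thus held these transcripts at like levels.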
